A study of Mus musculus with 3 samples.

Results

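Small RNAs recovered with an antibody against MIWI2 were compared between MEL cells and splenocytes, separately for reads of 20 to 23, 24 to 28 and 29 to 32 nt. The reads were chosen by length (end minus start of the mapped interval) and by place. The genome was tiled into 10 kb windows, and those in which the adult testis library had at least 100 reads per 1000000 (RPM) were left out. This gave 461907 reads, 376611 from MEL and 85296 from spleen, of the 2659248 mapped reads of the 3 libraries.

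The MEL library came from mouse erythroleukemia cells (ATCC TIB-55), a cultured line of early erythroblasts transformed by Friend virus. The spleen library came from unfractionated splenocytes of C57Bl6/J mice aged 10 weeks, so it mixed all cell types of that organ. Both were made from whole-cell lysates with a rabbit polyclonal antibody to mouse MIWI2 (PIWIL4; Abcam), and the recovered RNA went into Illumina small RNA libraries. The testis library, of the same strain and age as the spleen, was total RNA cut from an 18% polyacrylamide gel at about 29 nt with no antibody, and it served to choose the windows left out. No genotype, treatment or number of pooled animals is given for any group. Each group had 1 library, so no difference has a replicate check, none was tested, and error ranges cover counting only. No input RNA and no control immunoprecipitate were analysed here, so a read in an immunoprecipitate is not shown to have been bound by MIWI2. In bulk libraries, fewer cells of a type and less RNA per cell cannot be told apart. The files pair no position with a gene, so the labelled cell types were not checked against marker genes.

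MIWI2 is one of the mouse PIWI proteins, a branch of the Argonaute family that carries PIWI-interacting RNAs (piRNAs). It is best known from fetal male germ cells, where it enters the nucleus and directs DNA methylation of transposons. piRNAs are longer than microRNAs, which Dicer cuts from hairpins and which other Argonaute proteins carry. Fragments of tRNAs, ribosomal RNAs and small nucleolar RNAs can have the length of either kind, so length alone does not identify a small RNA.

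The libraries held 823452 (MEL) and 692011 (spleen) mapped reads. Testis reads led to 302 of 119251 windows being left out, which removed 10.1% of the MEL and 5.25% of the spleen reads, and 94.1% of those of testis. The share left out grew with length in both immunoprecipitates. It was 9.42%, 17.4% and 43.3% of the MEL reads of 20 to 23, 24 to 28 and 29 to 32 nt, and 3.56%, 8.10% and 24.6% of the spleen reads. Most MEL and spleen reads of 29 to 32 nt thus lay outside the windows in which testis was rich. For spleen this rested on a window of chromosome 7, described below. That window held 20712 of the 26935 kept spleen reads of this class. Without it, in a setting chosen after seeing the data, 6223 spleen reads of this class were kept, fewer than the 8803 left out.

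MEL and spleen differed in the lengths of the reads that were kept. In MEL, 50.9% of the 740330 kept reads were 20 to 32 nt long, against 13.0% of the 655669 in spleen. Spleen reads were mostly 19 nt or shorter. Reads of 20 to 23 nt made up 19.7% (exact Clopper-Pearson 95% interval 19.6 to 19.8) of the kept MEL reads and 4.75% (4.70 to 4.80) of the kept spleen reads. Reads of 24 to 28 nt made up 29.2% (29.1 to 29.3) in MEL and 4.15% (4.104 to 4.201) in spleen. The order turned for the longest class, at 1.97% (1.94 to 2.002) in MEL and 4.11% (4.06 to 4.16) in spleen. With each distinct pair of start and end counted once, it made up 1.89% in MEL and 1.496% in spleen, so this order rested on repeated reads. It also rested on 1 window of chromosome 7, described below. Without that window, in a setting chosen after seeing the data, the longest class made up 1.97% in MEL and 0.985% in spleen. Within 20 to 32 nt, MEL had a low rise at 22 nt (10.6% of those reads, against 8.96% at 23 nt). It was highest at 25 nt (16.4%) and fell to 2.06% at 29 nt. Spleen was highest at 20 nt (15.6%), had a low rise at 25 nt (7.72%) and rose again to 10.4% at 30 nt and 10.7% at 31 nt. The spleen values at 30 and 31 nt were 3.17% and 1.505% without the chromosome 7 window, so the second rise was not seen.

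**Figure D1:**
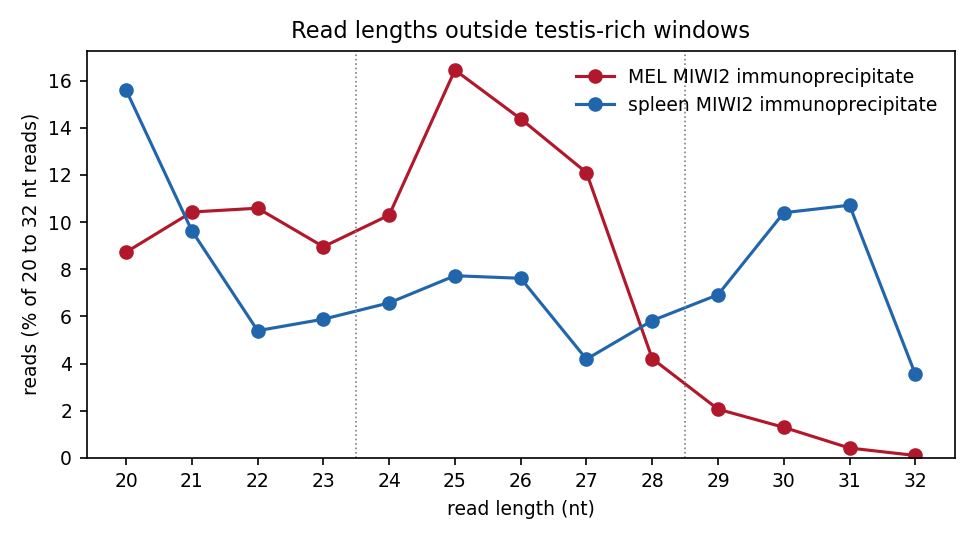
Read lengths outside the left-out windows. The x axis is read length in nt, the y axis is the percent of each library's reads of 20 to 32 nt, points are single libraries and dotted lines part the 3 length classes. MEL peaks at 25 nt (16.4%), spleen at 20 nt (15.6%) and again at 31 nt (10.7%, or 1.505% without the chromosome 7 window).

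Most spleen reads of 29 to 32 nt came from 1 place. In the window chr7:118210001-118220000 lay 20712 of the 26935 spleen reads of this class, which is 76.9%, against 19 of the 14587 MEL reads (0.130%). Here and below, an interval is a distinct pair of start and end, and an end is its left or right position. In the spleen class of 29 to 32 nt, the 3 most-read intervals, all in that window, held more than 50% of the reads. They were 118219710 to 118219739 with 5711 reads, 118219710 to 118219740 with 5099 and 118219709 to 118219739 with 3093, and MEL had 0 reads on each. Their left ends and their right ends lay within 1 nt of each other. Without that window, 50% of the spleen reads of this class took 98 intervals.

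The other classes were less concentrated. In spleen, 50% of the reads took 400 intervals at 20 to 23 nt and 84 at 24 to 28 nt. In MEL they took 135, 64 and 34 intervals in order of length. The richest window held 8.26%, 7.57% and 20.5% of the MEL reads and 5.57%, 22.98% and 76.9% of the spleen reads. The last 2 spleen values belong to windows on chromosomes 8 and 7 that MEL hardly read, as described below.

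Sharing was compared at equal depth, since the number of shared positions rises with depth. The larger library of a class was thinned at random to the smaller, and values are means of 100 draws with their range. MEL was thinned to 31135 and 27226 reads in the shorter classes. At 29 to 32 nt MEL was the smaller, so spleen was thinned to 14587 reads. Depth was thus equal within a class but not between classes, and an order of the classes can also follow their depths.

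In each class, most positions read in one immunoprecipitate were not read in the other. Of the spleen windows, 11.4% (range 10.7 to 11.9) also had a MEL read at 20 to 23 nt, 10.7% (9.91 to 11.3) at 24 to 28 nt and 23.5% (22.2 to 24.8) at 29 to 32 nt. Of the MEL windows, 14.4%, 11.3% and 8.59% had a spleen read. The longest class thus had the highest share of spleen windows and the lowest share of MEL windows. Spleen had 618 windows (mean of the draws) in that class at this depth, against 1691 in MEL. Before thinning, 69.9%, 76.6% and 76.5% of the MEL intervals and 48.8%, 53.2% and 42.5% of the spleen intervals were read once. A position read that rarely can be missed in the other library, and the part of this in the shares was not tested. With at least 2 reads in each library, 24.6%, 25.1% and 20.9% of the MEL windows and 10.3%, 12.4% and 28.5% of the spleen windows were shared.

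Exact intervals were shared less often than windows. Of the spleen intervals, 6.07% (5.75 to 6.51), 4.94% (4.56 to 5.23) and 11.3% (10.2 to 12.2) were also MEL intervals, in order of length. Of the MEL intervals, 6.56%, 4.63% and 4.56% were also spleen intervals. Left ends gave 6.59%, 5.43% and 12.3% of the spleen ends, and right ends gave 6.66%, 6.18% and 13.6%. Fixing 1 end only thus added little to the share of distinct features. By reads it added more. Shared left ends held 21.7%, 48.2% and 29.4% of the MEL reads, and shared intervals 15.1%, 35.2% and 21.9%. For the spleen reads these values were 31.4%, 13.1% and 12.7%, and 27.3%, 7.05% and 10.9%.

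The values of the longest class rested in part on the chromosome 7 window. That window takes most spleen reads of the class, so the remaining spleen positions are few after thinning. Without it, at 6223 reads in each library, 15.8% of the spleen windows and 14.5% of the MEL windows were shared. Intervals then gave 7.95% of spleen and 8.12% of MEL, and left ends 8.48% and 8.20%. This setting was chosen after seeing the data, and it brought the shares of both libraries close to each other.

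Weighting by reads gave another order. Of the MEL reads, 45.7%, 74.4% and 59.9% lay in windows that spleen also read, and 15.1%, 35.2% and 21.9% lay on shared intervals, in order of length. Of the spleen reads, 53.2%, 50.5% and 92.0% lay in shared windows, and 27.3%, 7.05% and 10.9% on shared intervals. Without the chromosome 7 window, 59.7% of the spleen reads of 29 to 32 nt lay in shared windows and 17.9% on shared intervals, against 63.9% and 27.03% of the MEL reads. At 24 to 28 nt, shared intervals thus held a larger part of the MEL reads than of the spleen reads.

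A few values weighted by reads turned on single reads. The spleen share at 24 to 28 nt in shared windows ranged from 40.3% to 73.7% over the draws. A chromosome 8 window with 22.98% of the spleen reads held 1 MEL read before thinning, which a draw kept or lost. The MEL shares at 24 to 28 nt also leaned on single spleen reads. Before thinning, chr3:51160001-51170000 and chr7:106630001-106640000 held 8926 and 8644 MEL reads and 1 spleen read each. Counting only features with at least 2 reads in each library, 69.5% of the MEL reads lay in shared windows and 23.3% on shared intervals. At 29 to 32 nt the 92.0% held the chromosome 7 window, which 19 MEL reads made a shared one. The right ends of that class behaved in the same way, with 43.9% of the spleen reads on shared right ends against 12.7% on shared left ends. The right end at 118219740 of chromosome 7 had 4 MEL and 9908 spleen reads, and its neighbour at 118219739 had 0 MEL and 10249 spleen reads.

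**Figure D2:**
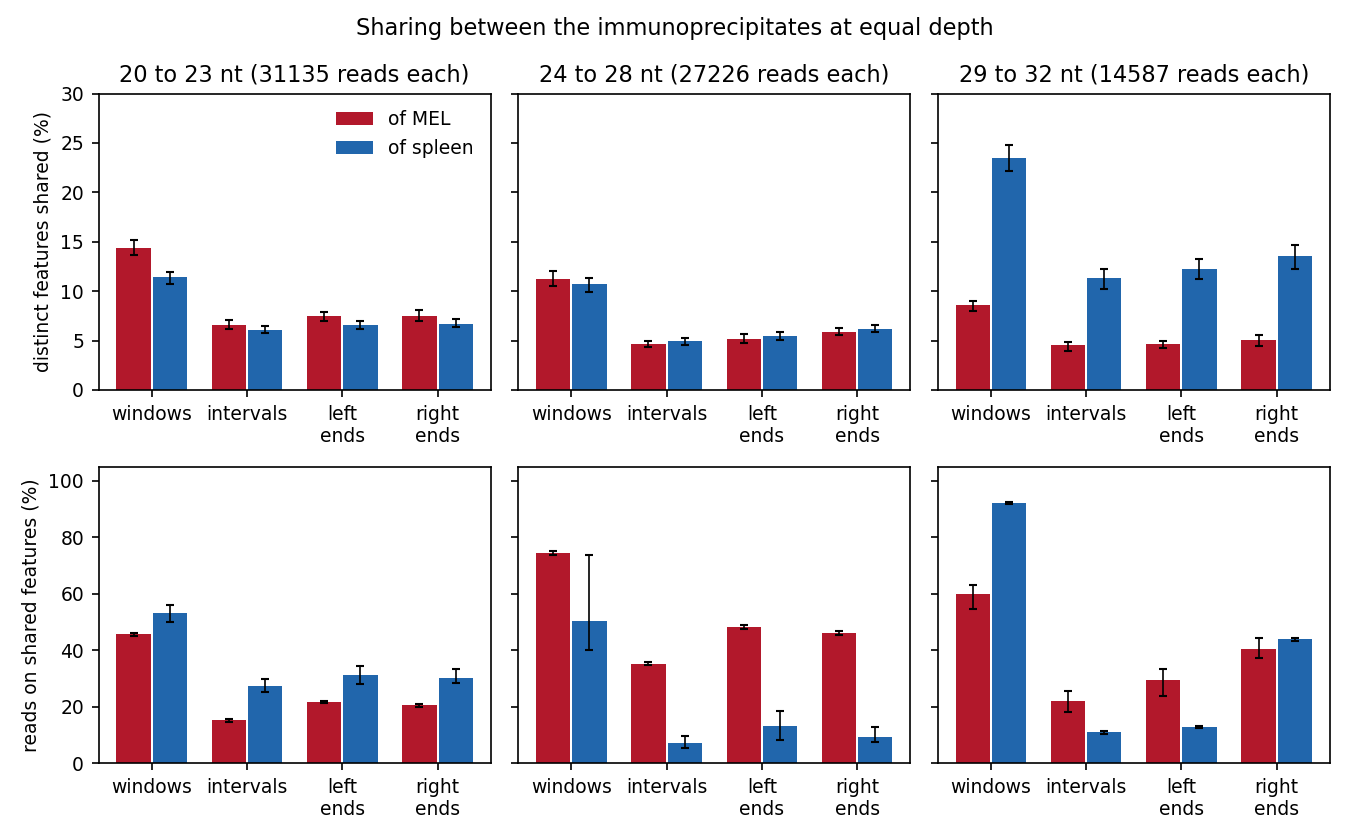
Sharing at equal depth. Columns of panels are the length classes; the upper row gives the percent of distinct windows, intervals, left ends and right ends found in the other library, the lower row the percent of reads on them. Bars are means of 100 random draws and error bars their range; the 29 to 32 nt spleen bar for windows reaches 23.5% above and 92.0% below, both with the chromosome 7 window included (15.8% of the windows without it).

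Shared ends were set beside ends that missed each other by a fixed distance. At 20 to 23 nt, 6.59% of the spleen left ends had a MEL left end at the same position, against 3.02% and 3.41% at 1 nt to either side and a mean of 0.195% at 20 to 40 nt away. At 24 to 28 nt the values were 5.43% at the same position, 2.94% and 3.38% at 1 nt, and 0.262% farther away. At 29 to 32 nt they were 12.3%, 6.25% and 5.73%, and 0.253%. In the 3 classes, exact coincidence was 33.8, 20.7 and 48.4 times as frequent as coincidence at 20 to 40 nt. Shared ends were thus concentrated at the same nucleotide and its neighbours in each class. The files hold no strand, so a shared position can come from opposite strands.

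**Figure D3:**
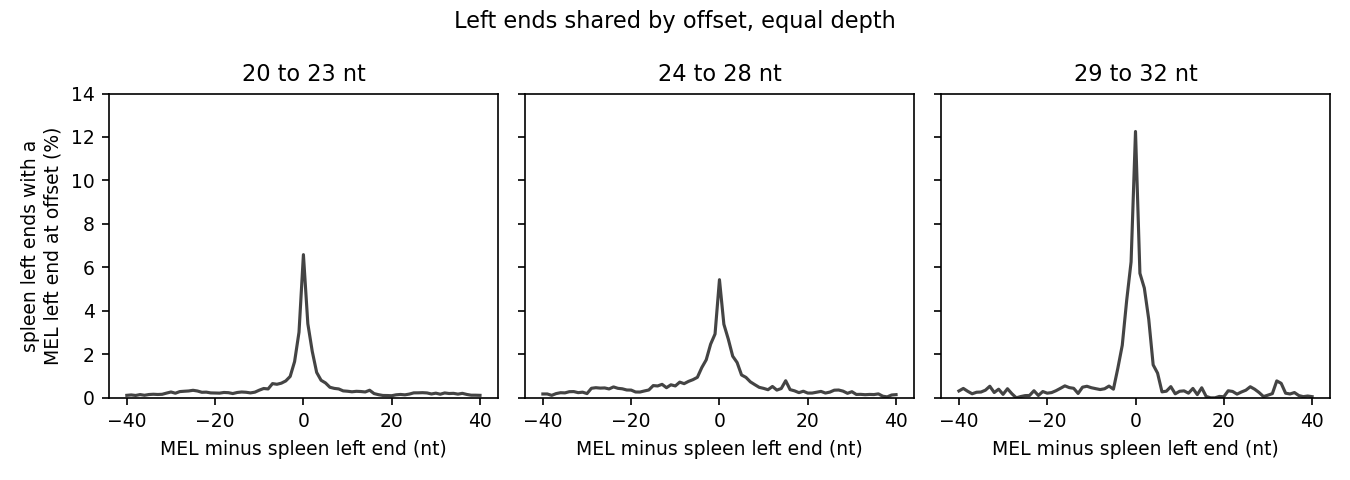
Left ends shared by offset at equal depth. The x axis is the MEL minus the spleen left end in nt, the y axis the percent of spleen left ends with a MEL left end at that offset, and each line is the mean of the draws for 1 length class. The maximum is at offset 0 in each class (6.59%, 5.43% and 12.3%).

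Single lengths showed where within a class the shared reads lay. With each length at its own equal depth, the share of spleen reads on intervals also read in MEL was 40.7% at 20 nt and 40.2% at 29 nt. It lay between 4.27% and 9.20% at each length from 24 to 28 nt, and at 2.93%, 2.11% and 2.26% at 30, 31 and 32 nt. The value at 29 nt rested mostly on the interval 118219712 to 118219740 of chromosome 7, with 1542 spleen reads and 4 MEL reads. The share was 26.8% at 29 nt and 8.95%, 14.4% and 14.3% at 30, 31 and 32 nt without the chromosome 7 window. The share of spleen intervals was 11.9% at 29 nt and 10.1% at 30 nt, or 9.28% and 7.34% without that window. In MEL the share of reads on shared intervals was 45.6% at 26 nt and 34.5% at 30 nt, and 3.01% at 31 nt, where MEL had 1565 reads. The last 2 values were 41.02% and 10.9% without the chromosome 7 window.

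Window levels were compared as class RPM, the RPM of a window with the total taken as all reads of that length class and library outside the left-out windows. A window was compared where it had at least 500 class RPM in either library, and counted as higher in one at 4-fold or more, with a library under 3 reads set to 3 reads. This is a rule of size, without a p-value. In the spleen, 3 reads were 96.4, 110 and 111 class RPM in order of length, and in MEL 20.6, 13.9 and 206.

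At 20 to 23 nt, 375 windows were compared. MEL was higher in 177 (47.2%) and spleen in 167 (44.5%), and 31 were under 4-fold. At 24 to 28 nt, MEL was higher in 91 of 212 (42.9%) and spleen in 97 (45.8%). At 29 to 32 nt, MEL was higher in 102 of 147 (69.4%) and spleen in 23 (15.6%). These are shares of all windows compared, so they are also the background for any window named below. Being past 4-fold was the usual state of a compared window.

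The balance at 29 to 32 nt turned when the chromosome 7 window was left out of the counts and the totals. Spleen was then higher in 110 of 299 windows (36.8%) and MEL in 44 (14.7%), in a setting chosen after seeing the data. Spleen then had 6223 reads in this class, fewer than MEL. The floor of 3 reads was thus higher in class RPM for spleen, which limits calls of windows higher in MEL. At 24 to 28 nt leaving it out gave 108 of 224 for spleen (48.2%) and 91 for MEL (40.6%). With each distinct interval counted once, spleen was higher in more windows than MEL in each class. The counts were 77 against 23 of 364, 116 against 7 of 363 and 24 against 3 of 1012. The floor of 3 then counted intervals, of which MEL had 20595, 28376 and 2717 and spleen 7378, 5068 and 1465. In class RPM this floor was higher for spleen, which limits calls of windows higher in MEL. The part of the floor and of depth in these counts was not tested. Class RPM are parts of a whole, so 1 window with 76.9% of a class lowers every other spleen value in it.

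Many windows higher in one library had no read at all in the other. Spleen had 0 reads in 96, 37 and 48 of the windows higher in MEL, and MEL had 0 reads in 31, 12 and 7 of those higher in spleen. The windows higher in MEL held 72.7%, 80.1% and 83.2% of the MEL reads, but 2.10%, 4.10% and 1.57% of the spleen reads. Those higher in spleen held 55.7%, 68.1% and 87.9% of the spleen reads, and 2.46%, 1.22% and 0.994% of the MEL reads. Only 37, 27 and 20 windows reached 500 class RPM in both libraries, of which 17, 9 and 9 were under 4-fold. The last class had 45 such windows, 21 of them under 4-fold, without the chromosome 7 window. Its windows higher in MEL then held 69.9% of the MEL reads, and those higher in spleen 71.6% of the spleen reads. Spleen had 0 reads in 16 of the former, and MEL had 0 in 62 of the latter.

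**Figure D4:**
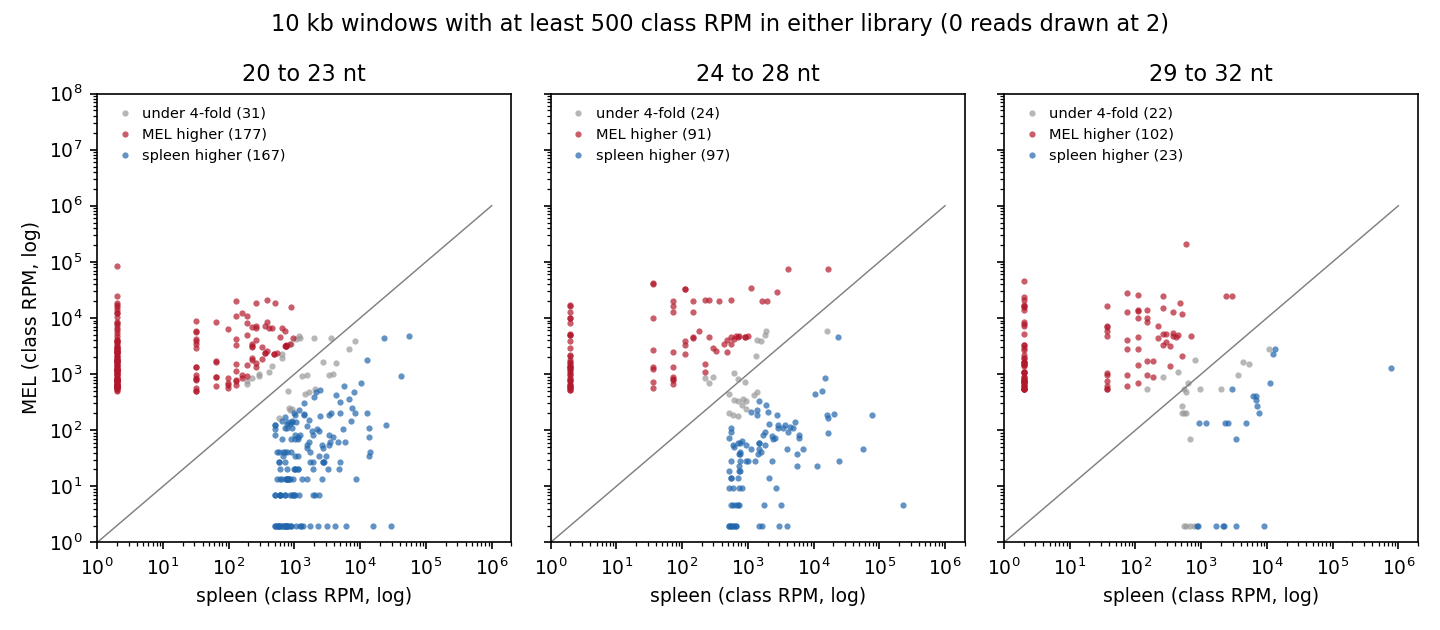
Compared windows in each length class. Both axes are class RPM on a log scale (spleen on x, MEL on y), each point is a 10 kb window, a library with 0 reads is drawn at 2, and the line marks equal levels. Red windows are higher in MEL (177, 91 and 102; 44 in the last class without the chromosome 7 window), blue in spleen (167, 97 and 23; 110 without it), and grey ones are under 4-fold, including windows with 0 MEL reads that 3 reads would bring within 4-fold.

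Among reads of microRNA length, 20 to 23 nt, some of the most unequal windows were stacks on few ends. The window with the largest fold was chr2:23010001-23020000, with 12043 MEL reads (82636 class RPM) and 0 spleen reads, at least 858-fold higher in MEL. There 97.0% of the MEL reads were the single interval 23017223 to 23017243, a read of 21 nt. The window chr2:133640001-133650000 had 2664 MEL and 0 spleen reads, and 99.6% of them were the 20 nt interval 133642457 to 133642476. It was 190-fold higher in MEL by the same rule (lower limit 154). In chr7:106630001-106640000, MEL had 3602 reads on 24 intervals and spleen 0, 257-fold higher in MEL by that rule (lower limit 209).

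Spleen had stacks of the same kind at this length. In chr8:112360001-112370000 it had 919 reads (29517 class RPM) and MEL 0, with 68.2% of the reads on the left end 112363200. With MEL set to 3 reads that was 1434-fold higher in spleen (lower limit 1164). In chr6:130180001-130190000 spleen had 487 reads and MEL 0, and 99.4% of them were the interval 130187687 to 130187707. That was 760-fold higher in spleen by the same rule (lower limit 616). Both were narrow stacks with no MEL read at this length.

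The leading shared window of this class, chr17:68070001-68080000, had 703 MEL and 1735 spleen reads. Its spleen level, 55725 class RPM, was 11.6-fold (95% interval 10.6 to 12.6) above the MEL level of 4824. The libraries used the same 4 intervals there in different proportions. The interval 68078729 to 68078748 had 286 MEL and 53 spleen reads, which is 1962 and 1702 class RPM. The interval 1 nt longer to the right had 236 MEL and 690 spleen reads, and the 20 nt interval from 68078730 had 180 and 991. Spleen reads thus ended mostly at 68078749 (96.9% of the window's spleen reads), and MEL reads ended there in 59.2%.

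A window nearer to equal at 20 to 23 nt had different leading intervals. In chr1:173040001-173050000 the levels were 4453 class RPM in MEL (649 reads) and 3565 in spleen (111 reads), a ratio of 1.25 (95% interval 1.02 to 1.54). The most-read MEL interval there was 173041574 to 173041596, and the most-read spleen interval 173041628 to 173041649, which do not overlap. Of the 6 spleen intervals in this window, 5 were also MEL intervals, so the libraries differed in how much they read from each.

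At 24 to 28 nt the leading shared window, chr6:47730001-47740000, also had different leading intervals. MEL had 16380 reads (75732 class RPM) and spleen 446 (16381), a ratio of 4.62 (95% interval 4.21 to 5.09). The leading MEL interval, 47738154 to 47738179, had 5764 MEL and 11 spleen reads. MEL reads shared their right end, with 82.3% of the window's reads ending at 47738179 and starting at different positions. The leading spleen interval, 47731623 to 47731647, held 64.3% of the spleen reads and lay in another place of the window.

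The shared interval with most in the lower library at this length lay on the mitochondrial genome. The 25 nt interval 3845 to 3869 had 699 MEL and 85 spleen reads, 3232 and 3122 class RPM, a ratio of 1.04. It was the leading interval of that window in both libraries, with 55.0% of its MEL reads and 19.3% of its spleen reads. The next shared interval by level, 153575144 to 153575168 on chromosome 3, had 3251 MEL and 38 spleen reads, a ratio of 10.8. Its window held 16210 MEL reads, 7.49% of the class, and 111 spleen reads.

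The windows higher in MEL by the largest folds at 24 to 28 nt had 1 to 3 spleen reads. In chr3:51160001-51170000, MEL had 8926 reads and spleen 1. In chr7:105960001-105970000, MEL had 7180 reads and spleen 3, a ratio of 301 (95% interval 103 to 1461). In chr1:167570001-167580000, MEL had 7117 reads and spleen 3, a ratio of 299 (102 to 1448). These 3 windows held 37 to 42 MEL intervals each.

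In the other direction, chr8:112360001-112370000 held 6256 spleen reads (229780 class RPM) and 1 MEL read. Its leading interval, 112363200 to 112363225 with 2799 reads, starts where 68.2% of the spleen reads of 20 to 23 nt in that window start. In chr9:40610001-40620000 spleen had 1519 reads and MEL 10, a ratio of 1207 (95% interval 654 to 2522) in favour of spleen. In chr11:116930001-116940000 spleen had 661 reads and MEL 6, a ratio of 875 (400.0 to 2393). The last is a place where both libraries read from the same left end, 116938557, for 98.3% of the spleen reads and 66.7% of the 6 MEL reads.

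At 29 to 32 nt, the lengths around the adult testis band, the leading MEL window was again chr6:47730001-47740000. It held 2990 MEL reads, 20.5% of the class, and 16 spleen reads, a ratio of 345 (95% interval 212 to 604). Leaving the chromosome 7 window out of the totals makes every fold in favour of MEL in this class 4.32 times smaller and every fold in favour of spleen 4.32 times larger, so both values are given. Without it the ratio was 79.8 (49.1 to 140). The right end at 47738179 was again the common one, with 93.8% of the MEL reads. Its 3 leading intervals, of 29, 30 and 31 nt, were also the 3 most-read MEL intervals of the class, with 1126, 751 and 737 reads. Spleen had 0, 14 and 0 reads on them.

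Other windows higher in MEL at this length had no spleen read. In chr16:23100001-23110000, MEL had 653 reads and spleen 0, at least 402-fold higher in MEL, or at least 93.0-fold without the chromosome 7 window. In chrX:93430001-93440000, MEL had 351 reads and spleen 0, all 351 on the 29 nt interval 93438181 to 93438209. By the same rule it was 216-fold higher (lower limit 175), or 49.98-fold (40.4) without the chromosome 7 window. The first window held 18 MEL intervals, with 5 left and 7 right ends, and 55.9% of its reads began at 1 left end. The second held 1 interval.

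After the chromosome 7 window, whose ratio was 590 (95% interval 378 to 981) in favour of spleen, the spleen windows were smaller. In chr15:79900001-79910000 spleen had 247 reads and MEL 0, at least 44.6-fold higher in spleen, or at least 193-fold without the chromosome 7 window. In chr11:101480001-101490000 spleen had 207 reads and MEL 3, a ratio of 37.4 (95% interval 12.6 to 183), or 162 (54.5 to 790) without it. In chr11:101510001-101520000 it had 191 and MEL 4, a ratio of 25.9 (9.94 to 95.9), or 112 (43.0 to 414) without it. The latter pair held 21 and 23 spleen intervals, and the commonest right end held 50.7% and 49.2% of their spleen reads.

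The places that both libraries read well at 29 to 32 nt were few. In chr9:120030001-120040000, MEL had 41 reads and spleen 294, and the same 29 nt interval led in both, with 40 and 115 reads. The interval 72070151 to 72070179 on chromosome 12 had 33 MEL and 203 spleen reads, and 90021391 to 90021419 on chromosome 9 had 27 and 190. The windows chr5:115930001-115940000 and chr5:115940001-115950000 had 360 and 364 MEL reads, and 79 and 65 spleen reads. The ratio was 8.41 and 10.3 in favour of MEL in the chromosome 5 windows, and 1.95 and 2.39 without the chromosome 7 window. The intervals on chromosomes 12 and 9 have nearly equal counts, and so have the windows on chromosome 5. How reads with several matches were treated is not given in the sources used here, so such places may not be separate sources.

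Windows often had the same direction at each length. Of the 94 windows compared in the 3 classes, 45 were higher in MEL in each class and 19 were higher in spleen in each. Some of those higher in MEL had nearly equal counts. In order of length, chr11:48660001-48670000 had 978, 4421 and 186 MEL reads, and chr14:51710001-51720000 had 981, 4424 and 230. Such windows may not be separate sources, which also limits the numbers of windows given per class above. Opposite calls were found in 3. All of them were higher in spleen at 20 to 23 nt and higher in MEL at 29 to 32 nt. Without the chromosome 7 window, 116 windows were compared in the 3 classes, 35 were higher in MEL in each and 38 higher in spleen in each. Opposite calls were then found in 2, of which chr5:115930001-115940000 was higher in spleen at 20 to 23 nt and in MEL at 24 to 28 nt. The other, chr13:23610001-23620000, went the other way, with 278, 127 and 3 MEL reads and 7, 0 and 8 spleen reads in order of length.

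The 3 opposite calls rested on 5, 11 and 79 spleen reads at 29 to 32 nt. In chr18:75160001-75170000, MEL had 16, 19 and 25 reads in order of length, and spleen had 424, 445 and 5. The low spleen count was that of 29 to 32 nt. In chr17:39980001-39990000, MEL had 647, 1005 and 68 reads and spleen 721, 644 and 11. In class RPM the MEL level there was nearly constant, at 4440, 4647 and 4662, and the spleen level went from 23157 and 23654 to 408. In chr5:115930001-115940000, MEL had 70, 913 and 360 reads and spleen 252, 17 and 79. Without the chromosome 7 window, the ratio at 29 to 32 nt was 2.14, 2.64 and 1.95 in favour of MEL on chromosomes 18, 17 and 5, under 4-fold at each. The opposite call at 29 to 32 nt was thus lost in all 3.

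The windows with at least 10 reads of a class in both libraries show how often the leading interval was the same. It was the same in 38 of 120 windows at 20 to 23 nt, 17 of 103 at 24 to 28 nt and 8 of 23 at 29 to 32 nt. In 39, 52 and 10 of them, the 2 leading intervals did not overlap at all. In 10, 8 and 2, the libraries had no interval in common. The leading intervals overlapped, or were the same, in the other 81, 51 and 13.

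The commonest end of a window held more of its reads at 20 to 23 nt than at 24 to 28 nt. In windows with at least 10 reads of a library, the commonest end of either side held a median of 83.3%, 40.7% and 79.8% of the MEL reads, in order of length, over 689, 625 and 96 windows. In spleen it held 77.8%, 56.4% and 62.9%, over 261, 163 and 72 windows. The share was thus lowest for MEL reads of 24 to 28 nt, its most abundant class. A window can hold several separate stacks and the depths differ, so raggedness of single ends was not measured.

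The lengths read from a common left end were compared last, over reads of 20 to 32 nt. There were 141 left ends with at least 10 reads in both libraries, at 103 loci when ends within 10 nt are joined. The most frequent length was the same at 69 of them, longer in spleen at 52 and longer in MEL at 20. At 149 right ends the counts were 91, 42 and 16. Differences ran from -9 to 6 nt (MEL minus spleen) at left ends, with a median of 0. Some left ends of the same length had nearly equal counts. The end 173041574 on chromosome 1 had 1655 MEL and 62 spleen reads, and 48670139 on chromosome 11 had 1677 and 50, most often of 23 nt. Such ends may not be separate sources, which can raise the numbers of ends and loci.

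The difference depended on the length of the spleen read. Where the spleen length was 20 to 23 nt, 51 of 79 ends had the same length in MEL, 14 a shorter one and 14 a longer one. Where it was 24 to 28 nt, 15 of 38 were the same and 18 were shorter in MEL. Where it was 29 to 32 nt, 3 of 24 were the same and 20 were shorter in MEL, at 14 loci, with a median difference of -3 nt. Grouped by the MEL length instead, the 84 ends with MEL reads of 20 to 23 nt had 51 of the same length, 23 shorter in MEL and 10 longer. The 50 ends of 24 to 28 nt had 15 of the same length, 28 shorter in MEL and 7 longer, with a median difference of -1 nt. The 7 ends with MEL reads of 29 to 32 nt had 3 of the same length, 1 shorter in MEL and 3 longer. Choosing the ends by a long length in one library favours a shorter one in the other, so both groupings are given.

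A chromosome 12 end and a chromosome 9 end show such a difference. At 72070151 on chromosome 12, MEL had 357 reads, 154 of them of 26 nt, 145 of 27 nt and 33 of 29 nt. Spleen had 215 reads from the same end, 203 of them of 29 nt. At the left ends 1 and 2 nt before it, the most frequent length was 27 and 28 nt in MEL and 30 and 31 nt in spleen. The most frequent right ends from these left ends were thus 3 nt apart between the libraries. At 90021391 on chromosome 9, MEL had 349 reads, 148 of 26 nt and 137 of 27 nt, and spleen had 203, of which 190 were 29 nt long. These are the ends with near-equal counts named above.

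Larger differences were found at other ends. At 172975116 on chromosome 1, MEL had 504 reads with 20 nt the most frequent length and spleen 49 with 26 nt. The ends 21802449 and 23609072 on chromosome 13 and 96115177 on chromosome 3 had 502, 476 and 519 MEL reads, and 41, 42 and 53 spleen reads, with the same 2 lengths. The counts of these 4 ends are nearly equal too, so they may not be separate sources. An end with like counts, 113586461 on chromosome 8, had 498 MEL and 39 spleen reads with 20 and 21 nt the most frequent lengths, a difference of 1 nt. Counted from the right end, the chromosome 1 reads ending at 172975136 had 21 nt as the most frequent length in both libraries (125 MEL and 13 spleen reads). The same held at 23609092 on chromosome 13, 96115197 on chromosome 3 and 113586481 on chromosome 8, with 119 to 134 MEL and 10 to 15 spleen reads. A 21 nt read with such a right end starts at the left end named above. The reads of 20 and 26 nt from that left end end elsewhere. These right ends thus cannot show whether the difference at the left ends holds, and nothing is concluded from them. These ends were named after their values were seen.

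In the other direction, MEL was longer by 3 nt or more at 6 ends, which lay at 3 loci. At 75161534 on chromosome 18, MEL had 38 reads, most often of 30 nt, and spleen 377, most often of 24 nt. At 75161109 of the same window, MEL had 14 reads, most often of 29 nt, and spleen 278, most often of 24 nt. The other 4 ends lay between 39984521 and 39984527 on chromosome 17. Both windows are among the 3 with opposite calls above.

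Some shared ends had the same most frequent length in both libraries. At 120039534 on chromosome 9, 29 nt was the most frequent length in MEL (88 reads) and spleen (310 reads). At 68078730 on chromosome 17, all 180 MEL and 991 spleen reads were 20 nt long. At 8799064 on chromosome 19, 23 nt was the most frequent length of 208 MEL and 220 spleen reads. The length difference was thus not seen at every shared end.

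**Figure D5:**
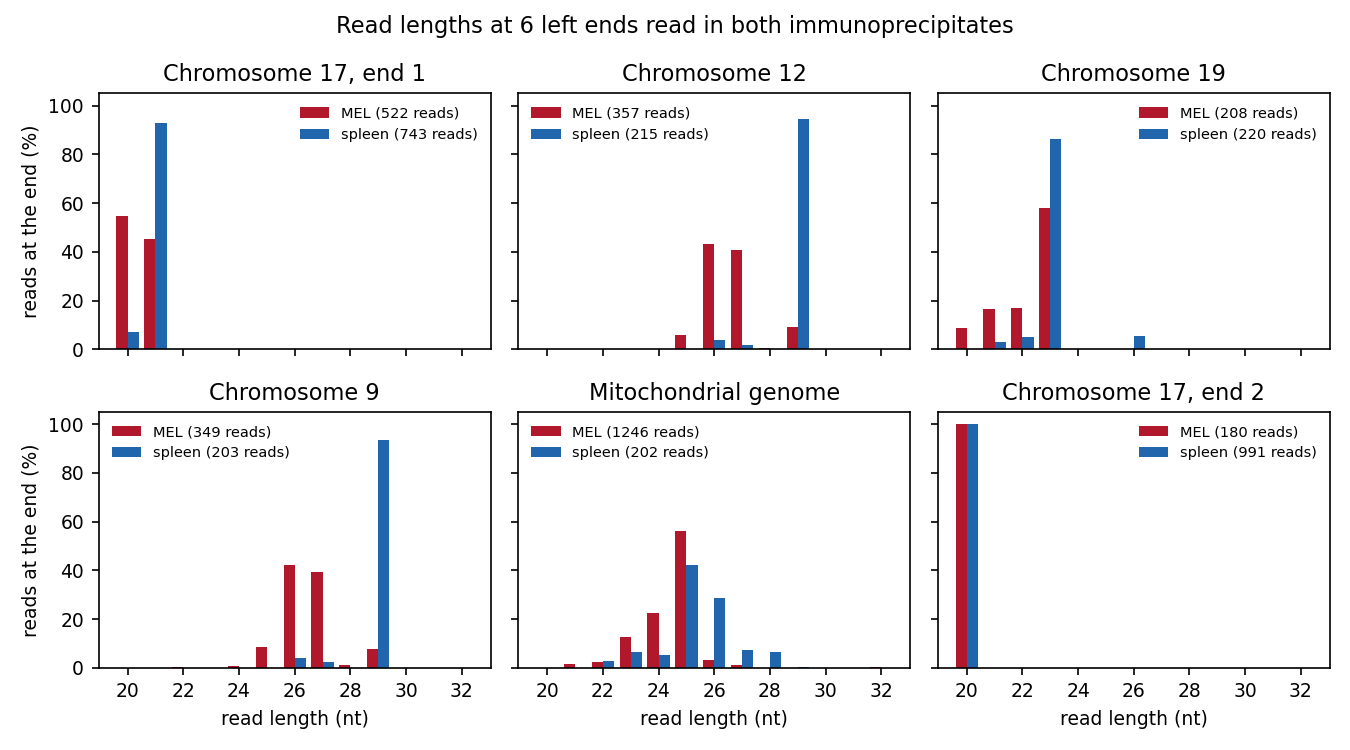
Read lengths at 6 left ends that both libraries read. The x axis is read length in nt, the y axis the percent of that library's 20 to 32 nt reads at the end, and bars are single libraries with their read numbers in the legends. The chromosome 12 and chromosome 9 ends have MEL reads mostly of 26 and 27 nt and spleen reads of 29 nt, and the second chromosome 17 end has 20 nt reads in both.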

How the data were processed

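Small RNA libraries of 1 MEL, 1 spleen and 1 testis sample were used. The deposited files hold no measured values. Per the file contents, each line is the chromosome, start and end of a mapped read, with no strand, sequence, read name or score, and reads seen several times repeat a line. The aligner was Bowtie 0.12.7, per the submitters' processing notes. Its options, adapter trimming, the handling of multiple matches and the build were not given in the sources used here. Chromosome names ending in _random, and chromosome 7 reads up to 152523579, beyond its last GRCm38 gene at 145324086, differ from GRCm38, so that annotation and its sequences were not joined, and no gene or sequence is printed.

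Starts were taken as counted from 0, so end minus start is the length, and positions are printed counted from 1. Reads were counted per length class, 10 kb window, interval and end. Equal depth used 100 seeded random draws without replacement. Kept reads per class numbered 145736, 216288 and 14587 in MEL and 31135, 27226 and 26935 in spleen. Because MEL was the smaller at 29 to 32 nt, spleen was thinned there. Shares have exact Clopper-Pearson, levels exact Poisson and ratios exact conditional binomial 95% intervals. These cover counting error only, since reads carry no molecular identifiers and copies made by PCR count as reads.

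Named windows and intervals were, per class, the 5 windows and 5 intervals with most in the lower library, 5 windows per direction by fold and the 3 most-read intervals of each library, of which the text gives examples. Windows read in opposite directions and ends of different length were picked after their values were seen. The members and lists were chosen with earlier results of these data known. The planned grouping of windows by RNA type and the microRNA lists were not computed, since they need annotation of the files' build. The counting steps were tested on simulated data. Python 3.11.15 with numpy 2.4.6, pandas 2.3.3, scipy 1.17.1 and matplotlib 3.10.9 was used.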

Additional observations from a re-analysis of the deposited data

Results flagged for a closer look

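Reads of other lengths were outside the comparison. Outside the left-out windows there were 718 MEL and 2248 spleen reads of 33 nt or more. There were 363001 MEL and 568125 spleen reads of 19 nt or less, which is 49.0% and 86.6% of the kept reads. Of these short reads, 76.0% in spleen and 45.7% in MEL lay on shared intervals at equal depth, 363001 reads each, which is more than in each class from 20 to 32 nt at its own depth. Reads that short can match several places, and their treatment is not given. Of the reads of 33 nt or more, 1.47% of spleen and 1.30% of MEL lay on shared intervals, at 718 reads each.

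The testis library was used only to leave out windows, yet below its limit it read many of the shared intervals. Of the intervals in both immunoprecipitates, testis had a read on 82 of 778 at 20 to 23 nt (10.5%), 87 of 488 at 24 to 28 nt (17.8%) and 52 of 158 at 29 to 32 nt (32.9%). Among intervals read in MEL alone the shares were 0.802%, 1.20% and 8.05%, and among those read in spleen alone 0.197%, 0.459% and 3.37%. These counts use all reads of the class without thinning. The part of read depth in these shares was not tested.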

How the results depend on the processing

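Of 161 values recomputed, 86 moved by less than their counting interval or, for counts, stayed within 1.5 times, and 75 moved. Below, values are percent of spleen features also in MEL unless said otherwise. Without thinning, windows gave 21.1% at 20 to 23 nt and 22.2% at 24 to 28 nt, intervals 10.5% and 9.63%, and left ends 11.6% and 11.3%. With at least 2 reads in each library, windows gave 10.3%, 12.4% and 28.5% in order of length, intervals 5.42% (20 to 23 nt) and 7.96% (29 to 32 nt), and left ends 5.72% (20 to 23 nt). Of the MEL intervals, 10.7%, 10.8% and 6.48% were then shared, in order of length. With no window left out, windows gave 13.0%, 14.7% and 40.2%, intervals 5.84% and 19.9% and left ends 7.30% and 24.4% (24 to 28 and 29 to 32 nt). With a testis limit of 10 RPM, windows gave 10.5%, intervals 4.93% and left ends 5.52% at 20 to 23 nt, and intervals 4.15% at 24 to 28 nt. Without the 5 most-read windows of either library, windows gave 9.43% and 15.8%, intervals 3.9998% and 7.51% and left ends 4.38% and 7.91% (24 to 28 and 29 to 32 nt). Without the chromosome 7 window, chosen after seeing the data, windows gave 15.8%, intervals 7.95% and left ends 8.48% at 29 to 32 nt. Windows of 1 kb gave 9.92% and 9.10% in the shorter classes. Allowing 1 nt at each end, intervals gave 9.70%, 8.33% and 18.9% in order of length, and left ends 8.92%, 7.81% and 16.8%. Right ends gave 6.18% at 24 to 28 nt.

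Shares of reads per class moved with each planned setting. With each distinct interval counted once, MEL had 14.3%, 19.7% and 1.89% and spleen 7.53%, 5.17% and 1.496%, so that the longest class was no longer higher in spleen. With no window left out, MEL had 19.5%, 31.8% and 3.12% and spleen 4.67%, 4.28% and 5.16%. With a testis limit of 10 RPM, MEL had 21.5%, 21.97% and 1.41% and spleen 5.50%, 5.05% and 5.38%. Without the chromosome 7 window spleen had 4.86%, 3.98% and 0.985%, the last below the 1.97% of MEL.

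With each distinct interval counted once, MEL was higher in 23 of 364, 7 of 363 and 3 of 1012 windows and spleen in 77, 116 and 24. The floor, then counted in intervals, was higher in class RPM for spleen and limits the MEL calls. At a level of 1000 class RPM spleen was higher in 93 and MEL in 122 of 237 windows at 20 to 23 nt, and in 57 and 72 of 138 at 24 to 28 nt. At 200 these counts were 443 and 204 of 808, and 311 and 97 of 499, so the balance in these classes depended on the level. With 8-fold MEL was higher in 60 of 212 windows at 24 to 28 nt, and with 2-fold spleen in 36 of 147 at 29 to 32 nt. Without the chromosome 7 window MEL was higher in 44 and spleen in 110 of 299 at 29 to 32 nt. The most frequent length was the same at 48.9% of shared left ends and at 61.1% of shared right ends.

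No paired analysis was possible because each group had 1 library. For the same reason no library was left out in turn. The causes of these changes were not tested. At 29 to 32 nt MEL had 14587 reads, and 3 of them already make 206 class RPM, which limits calls of windows higher in spleen. Without the chromosome 7 window spleen had 6223 reads in this class. The floor was then higher in class RPM for spleen and limits calls of windows higher in MEL more.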
